A study of Mus musculus with 27 samples.

Results

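Regions of open chromatin that gained counts with Mef2c alone, and not with Gata4 or Tbx5 alone, were followed through the factor combinations used in cardiac reprogramming. Levels are in CPM, a library's count at a region scaled to the library's total over all regions. A region was a member when its mean CPM plus 5 in cells with Mef2c alone (M) was at least 2.5 times that in control cells, while cells with Gata4 alone (G) and with Tbx5 alone (T) both stayed between 0.6 and 1.67 times the control. The members were thus chosen by the CPM of M, G, T and control, and GM, MT, GMT and GT had no part in it. The rule took 1172 of 30815 regions (3.80%), here called the Mef2c-only regions. These were 72.0% of the 1628 regions that reached 2.5 times the control in M. The other 456 had G or T outside the window. In G, 149 were above it and 101 below it, and in T, 147 were above it and 127 below it. A region could count in both G and T.

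The assay was ATAC-seq, which reads open chromatin from the places where a transposase could insert adapters. The cells were a line of immortalised neonatal mouse cardiac fibroblasts of strain Cd-1 that express large T antigen and carry the alpha-MHC-GFP reporter, whose promoter is active in heart muscle cells. They were infected with retroviruses and harvested at day 2 without sorting, so a library may hold infected and uninfected cells, and fewer open cells cannot be told apart from less opening per cell. The 7 factor groups received Mef2c (M), Gata4 and Mef2c (GM), Mef2c and Tbx5 (MT), all 3 factors (GMT), Gata4 and Tbx5 (GT), Gata4 (G) or Tbx5 (T), and all were given sb431542, which blocks TGF-beta receptors, and xav939, which blocks Wnt signalling. The control received dsRed, a red fluorescent protein, and no inhibitors. A difference from the control therefore holds factors and inhibitors together, whereas the 7 factor groups are matched for the inhibitors. Each of the 8 groups had 3 libraries. A further 3 samples of dsRed cells with inhibitors are not analysed here.

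Mef2c is a MADS-box transcription factor that binds A/T-rich DNA and activates genes of skeletal, smooth and heart muscle, including genes of the contractile apparatus. Gata4, a zinc-finger protein that binds GATA sites, and Tbx5, a T-box protein, act beside it in the developing heart, and Mef2c is known to work with both as a partner. Together the 3 factors are used to turn fibroblasts towards a heart muscle-like state. Which DNA letters and which genes lie at the regions was not analysed here, since no genome or annotation of build mm9 was at hand, so regions are named by their coordinates.

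The smallest library, GMT replicate 1, held 241394 counts, and the largest, MT replicate 1, held 1704896. The library labelled GT replicate 1 resembled G more than GT, with a mean Spearman correlation across regions of 0.893 with the G libraries and 0.726 with the other GT libraries. GMT replicate 1, GM replicate 2 and G replicate 2 also correlated better with another group than with their own. GMT replicate 1 had 0.772 with MT and 0.707 with GMT. For the others the closer group was the control. GM replicate 2 had 0.815 with the control and 0.805 with GM, and G replicate 2 had 0.823 with the control and 0.802 with G. Members called in a comparison are counted with and without GMT replicate 1, GM replicate 2 or the library labelled GT replicate 1. This was done where that library was part of the comparison. No count of calls leaves out G replicate 2 alone. A fit with only the GM, MT, GMT and GT libraries, given below, holds no G library. Members open by combination are covered for each of the libraries named above. The splits by width and M level are given only with all of them. Replicates are labelled biological, but what separates them is not stated, and p-values measure the spread between these libraries only.

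The values of M, G, T and control chose the members and are a description only. Over the members, the median CPM of a library was 33.6, 31.0 and 30.7 in the 3 M libraries, against 6.55, 4.99 and 3.32 in the 3 control libraries. It was 4.45, 7.77 and 2.59 in G, and 5.23, 2.95 and 5.44 in T. The M libraries therefore held the members at a level of 14 to 32 counts per region (median over members, by library), and each control library at 3 or 4 counts. All 1172 members together took 4.60% ± 0.19 (SD, n = 3) of the counts in M and 0.789% ± 0.216 in the control. At a member the M mean ranged from 7.63 to 308 CPM, with a median of 31.6 CPM, and the ratio of M to control ran from 2.50 to 17.7 with a median of 3.35. The control mean at members had a median of 5.13 CPM and that over all regions 8.63 CPM.

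The threshold cut through a continuous range. The members just inside it were chr15:64164003-64164492, with 56.0, 53.3 and 57.0 CPM in M and 28.4, 17.5 and 11.6 CPM in the control, and chr4:18531983-18532185, which had too few counts for the test. Just outside lay chr11:68488200-68488518, with 16.0, 26.2 and 41.6 CPM in M and 8.74, 7.49 and 8.30 CPM in the control, and chr8:82099674-82099934. Membership moved with the settings of the rule, to 1857 regions at a fold of at least 2 and 779 at a fold of at least 3. Without G replicate 2 the rule took 1076 regions.

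To give M a value that had not chosen the regions, the rule was applied again without each M library in turn. Chosen without M replicate 1, 1156 regions had a median of 32.0 CPM in that left-out library, and 80.4% of them reached 2.5 times the control in it alone, against 5.98% of all regions. The 1237 regions chosen without M replicate 2 had a median of 29.1 CPM there, and the 1177 chosen without M replicate 3 had 28.5 CPM. Of these lists, 70.4% and 72.0% reached 2.5 times the control in the left-out library, against 5.10% and 6.10% of all regions. The control libraries chose the regions in each case, so only the M side of these values is free of the choice. These left-out medians lay between 28.5 and 32.0 CPM, beside 30.0 to 33.6 CPM in the M libraries that chose the same lists.

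In the median, the regions stood between M and the control wherever Mef2c was combined with another factor. In GM the library medians over members were 17.3, 14.7 and 15.5 CPM. Those of MT were 18.2, 17.6 and 14.0 CPM, and those of GMT 12.4, 11.0 and 15.1 CPM. In GT, which has no Mef2c, they were 4.94, 2.54 and 7.06 CPM, against 6.55, 4.99 and 3.32 CPM in the control. All 9 libraries of combinations with Mef2c lay above all libraries without Mef2c, and all lay below the 3 M libraries, including the left-out values of 28.5 to 32.0 CPM. The members took 2.51% ± 0.26 (SD, n = 3) of counts in GM, 2.78% ± 0.53 in MT, 2.27% ± 0.35 in GMT and 0.788% ± 0.241 in GT, against 0.789% ± 0.216 in the control.

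**Figure D1:**
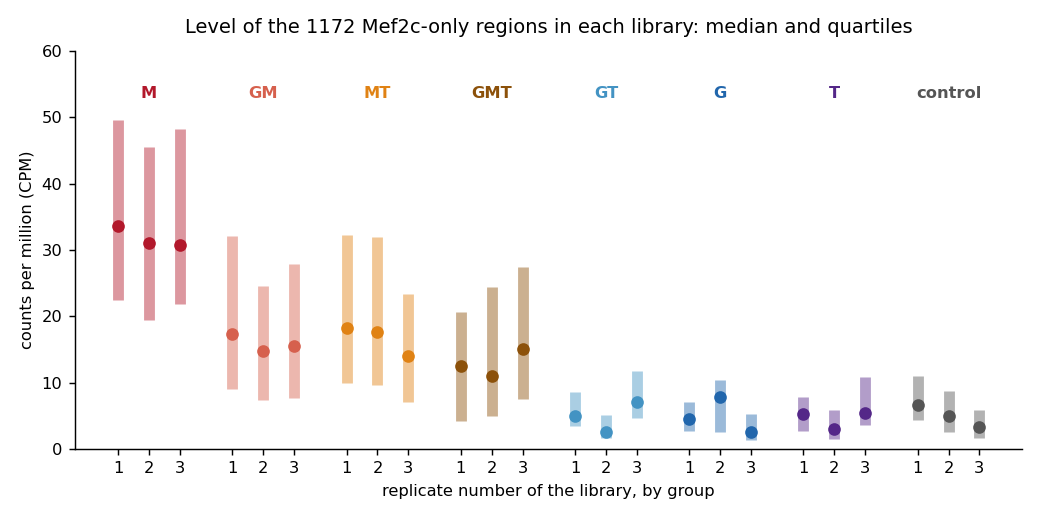
Median (point) and range from the first to the third quartile (bar) of CPM over the 1172 Mef2c-only regions, for each of the 24 libraries by group. The M libraries have medians of 30.7 to 33.6 CPM and the GM, MT and GMT libraries 11.0 to 18.2 CPM, and no library without Mef2c is above 7.77 CPM.

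Set against M at the same region, the level plus 5 CPM had a median ratio of 0.57 in GM, 0.60 in MT and 0.49 in GMT. M was the highest of the 4 groups with Mef2c at 961 of the 1172 members. Since M was chosen high, these ratios are a description. The regions above M numbered 91 in GM, 110 in MT and 89 in GMT. Not above the control were 51 members in GM, 27 in MT and 111 in GMT. The share above the control was 95.6% of members in GM, 97.7% in MT and 90.5% in GMT. Of all regions it was 56.5%, 55.5% and 54.1%.

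Measured by the fold of the rule against the same control, 370 members (31.6%) reached 2.5 times the control in GM, where 4.24% of all regions did. In MT the number was 384 (32.8%), where 7.82% of all regions did. In GMT it was 259 (22.1%), where 10.4% of all regions did. One member reached it in GT (0.0853%), where 5.88% of all regions did. These counts share the control libraries that chose the members and are not tested. The number in GT was 2 without the library labelled GT replicate 1, 5 without control replicate 1 and 2 without control replicate 2. Without GMT replicate 1 or GM replicate 2, the numbers in GMT and GM stayed within 1.5 times those given.

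Counted by which combinations reached the same fold, 133 members (11.3%) did so in GM, MT and GMT together, as did 1.06% of all regions. In none of them did 588 members (50.2%) and 85.1% of all regions. GM alone held 140 members (11.9%) and 1.86% of all regions. MT alone held 131 (11.2%) and 2.43%, and GMT alone 17 (1.45%) and 4.06%. These classes are threshold crossings with no test of a difference between combinations. Without GMT replicate 1 the regions open in GMT alone numbered 29, those open in none 576 and those open in all 143. Without GM replicate 2 those numbers were 15, 553 and 144, with 175 open in GM alone. The library labelled GT replicate 1 does not enter these counts, and G replicate 2 enters only through the choice of members, which was kept. Leaving either out therefore could not move them. The 588 were not at the control level, since their median ratio to the control was 1.63 in GM, 1.66 in MT and 1.34 in GMT, against 0.97 in GT.

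**Figure D2:**
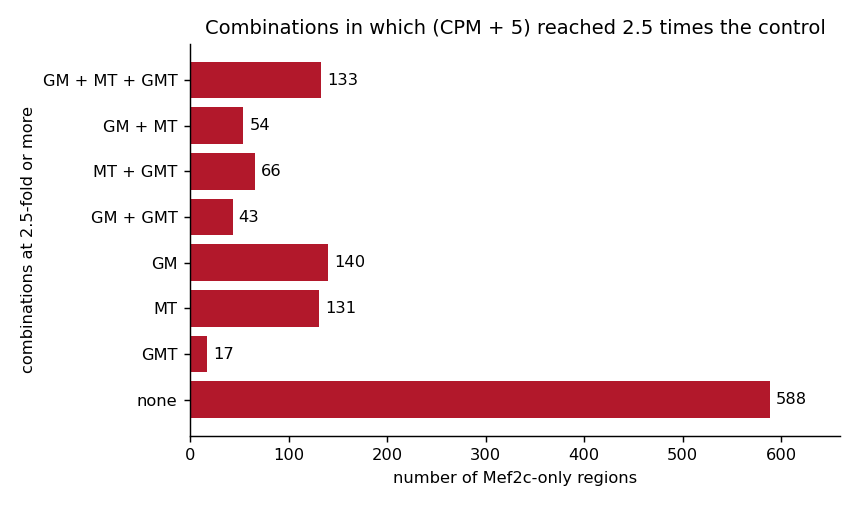
Number of the 1172 Mef2c-only regions (x axis) by the combinations in which mean CPM + 5 reached 2.5 times the control (y axis). Of these, 588 reached it in none of GM, MT and GMT, 140 in GM alone, 131 in MT alone and 133 in all of them.

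Comparisons among GM, MT, GMT and GT set no library that chose the members on either side. M, G, T and control still enter the filter, the scaling and the estimate of spread, and a region can pass the filter through M alone. A fit with only the 12 libraries of GM, MT, GMT and GT, which is free of this, tested 814 members among 18714 regions, and its counts are given beside the others. Its shares of members are over all 1172, tested or not. Counts were tested with edgeR's quasi-likelihood test over 20494 regions that passed a filter on low counts. Of the members 1053 passed it and 119 were too low to test. A region is called at a Benjamini-Hochberg adjusted p below 0.05 over all regions tested. The median member had 4, 3 and 3 counts in the GT libraries. A fall below GT therefore had little room to be called at the members.

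Adding Mef2c to cells with Gata4 and Tbx5 raised 341 members in GMT against GT and lowered none. These were 29.1% of all 1172 members and 32.4% of those tested, while 5.66% of all regions tested were called higher and 1.29% lower. Over every member, tested or not, the median log2 ratio of mean CPM plus 5 was 0.82, and over all 30815 regions it was -0.01. The libraries of GMT all lay above those of GT at 515 members (43.9%), as they did at 9.48% of all regions. Without GMT replicate 1 this held at 687 members (58.6%) and 18.2% of all regions, and without the library labelled GT replicate 1 at 602 (51.4%) and 14.0%. At an unadjusted p below 0.05 the test had 604 of the 1053 members tested higher and 1 lower, and DESeq2 called 296 higher and none lower. Of all 20494 regions tested, 2902 were higher and 1634 lower at that unadjusted threshold, and DESeq2 called 1245 in either direction. The fit with only the 12 combination libraries called 256 members (21.8%) higher and none lower, with 4.44% of its regions called higher and 0.476% lower. The members raised stood at a median of 30.2 CPM in GMT and 6.51 CPM in GT, and were 306 bp wide in the median.

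The number of members called in GMT against GT was 205 without GMT replicate 2, 155 without GMT replicate 3 and 188 without GT replicate 2. It was 229 without the library labelled GT replicate 1 and 340 without GMT replicate 1. A fit with only the 6 libraries compared called 62, and a test of a minimum fold of 1.5 called 196. All of these calls at members were rises. Over all regions, 1424 calls in either direction became 624, 489, 1342, 702, 1807, 178 and 607 in the same order.

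The highest-ranked rise in GMT against GT was at chr15:53151300-53151669, a region of 370 bp that also had the highest ratio of M to control. There GMT had 16.6, 53.8 and 68.9 CPM and GT had 1.23, 0 and 7.06 CPM, so the groups did not overlap (log2 fold change 4.72 ± 0.77 SE, edgeR adjusted p = 0.000256). The GMT libraries differed among themselves, with replicate 1 lowest. In the other groups with Mef2c the region had 199.9, 154 and 147 CPM in M, 131, 95.8 and 60.7 CPM in MT and 37.9, 31.9 and 18.5 CPM in GM, against 8.74, 3.74 and 1.66 CPM in the control. M was thus above all other groups, MT was next by its mean, and the GM libraries lay within the range of those of GMT.

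Next came chr1:156971562-156972064, a region of 503 bp ranked 8 by M over control. GMT had 29.0, 59.9 and 50.0 CPM there and GT had 1.23, 0 and 7.06 CPM (log2 fold change 4.64 ± 0.70 SE, edgeR adjusted p = 9.68e-05). GM had 72.5, 49.1 and 69.5 CPM, MT had 57.5, 70.3 and 30.4 CPM, and M had 88.0, 66.9 and 74.5 CPM, against 6.55, 1.25 and 0 CPM in the control. GM and MT overlapped M at this region, and GMT lay below M while overlapping both pairs.

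The region after it, chr10:39068516-39068924, was only just above the threshold in M. It had 33.1, 50.2 and 49.1 CPM in GMT and 1.23, 1.70 and 2.35 CPM in GT (log2 fold change 4.63 ± 0.62 SE, edgeR adjusted p = 2.48e-05). In MT it had 93.3, 91.0 and 53.7 CPM, above the 16.0, 20.4 and 28.5 CPM of M, with 4.37, 4.99 and 5.81 CPM in the control. The MT libraries did not overlap those of M here.

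Exchanging Tbx5 for Mef2c beside Gata4 gave a rise at 506 members (43.2%, or 48.1% of those tested) in GM against GT and a fall at none. Of all regions tested 6.42% were called higher and 7.16% lower. Over every member the median log2 ratio of mean CPM plus 5 was 0.99, and over all regions it was -0.01. The GM libraries all lay above those of GT at 670 members (57.2%), as they did at 10.2% of all regions. Without GM replicate 2 this held at 814 members (69.5%) and 15.2% of all regions, and without the library labelled GT replicate 1 at 779 (66.5%) and 18.0%. At an unadjusted p below 0.05, edgeR had 716 of the 1053 members tested higher and none lower, and DESeq2 called 460 higher and none lower. Of all 20494 regions tested, 2419 were higher and 2918 lower at that unadjusted threshold, and DESeq2 called 2514 in either direction. The fit with only the 12 combination libraries called 410 members (35.0%) higher and none lower, with 5.43% of its regions called higher and 4.86% lower. The number of members called was 298 without GM replicate 1, 153 without GT replicate 2 and 248 with only the 6 libraries compared. It was 513 without the library labelled GT replicate 1 and 507 without GM replicate 2. Over all regions, 2782 calls in either direction became 1288, 412, 887, 3958 and 2449 in the same order.

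The highest-ranked rise in GM against GT was at chr5:63266841-63267132, with 43.0, 76.1 and 35.5 CPM in GM and 2.47, 0.848 and 0 CPM in GT (log2 fold change 5.13 ± 0.67 SE, edgeR adjusted p = 1.68e-05). M had 92.8, 59.1 and 76.7 CPM there and the control 10.9, 4.99 and 0.830 CPM. The levels of MT, at 15.8, 17.6 and 16.3 CPM, and of GMT, at 24.9, 22.0 and 15.1 CPM, lay between these. At chr1:156971562-156972064, named above, GM also exceeded GT (log2 fold change 5.03 ± 0.69 SE, edgeR adjusted p = 3.16e-05). Next ranked was chr9:70163417-70163619, where GT had no count in any library and GM had 12 in all. Against a floor of 3 counts over the GT group, the pooled GM level there was at least 3.70-fold higher, and the call was lost without GM replicate 3 (edgeR adjusted p = 0.0946) or GT replicate 2 (edgeR adjusted p = 0.161).

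Exchanging Gata4 for Mef2c beside Tbx5 gave the most calls, 615 members (52.5%, or 58.4% of those tested) higher in MT against GT and none lower. Over all regions tested, 11.2% were called higher and 8.60% lower. The median log2 ratio of mean CPM plus 5 was 1.06 over every member and -0.01 over all regions. The MT libraries all lay above those of GT at 689 members (58.8%), as they did at 13.3% of all regions, and without the library labelled GT replicate 1 at 776 (66.2%) and 17.7%. At an unadjusted p below 0.05, edgeR had 778 of the 1053 members tested higher and none lower, and DESeq2 called 535 higher and none lower. Of all 20494 regions tested, 3558 were higher and 3041 lower at that unadjusted threshold, and DESeq2 called 3683 in either direction. The fit with only the 12 combination libraries called 491 members (41.9%) higher and none lower, with 9.68% of its regions called higher and 6.47% lower. The number of members called was 370 without MT replicate 1, 378 without GT replicate 2 and 347 with only the 6 libraries compared. It was 501 without the library labelled GT replicate 1. Over all regions, 4051 calls in either direction became 1924, 3270, 2081 and 2757 in the same order.

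In MT against GT the first-ranked regions were those of GMT against GT, in another order. At chr15:53151300-53151669 the log2 fold change was 5.70 ± 0.75 SE (edgeR adjusted p = 5.56e-06). At chr10:39068516-39068924 it was 5.47 ± 0.60 SE (adjusted p = 3.66e-07), and at chr1:156971562-156972064 it was 4.82 ± 0.69 SE (adjusted p = 1.97e-05). All of these comparisons share the GT libraries, so their calls are not independent of each other.

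**Figure D3:**
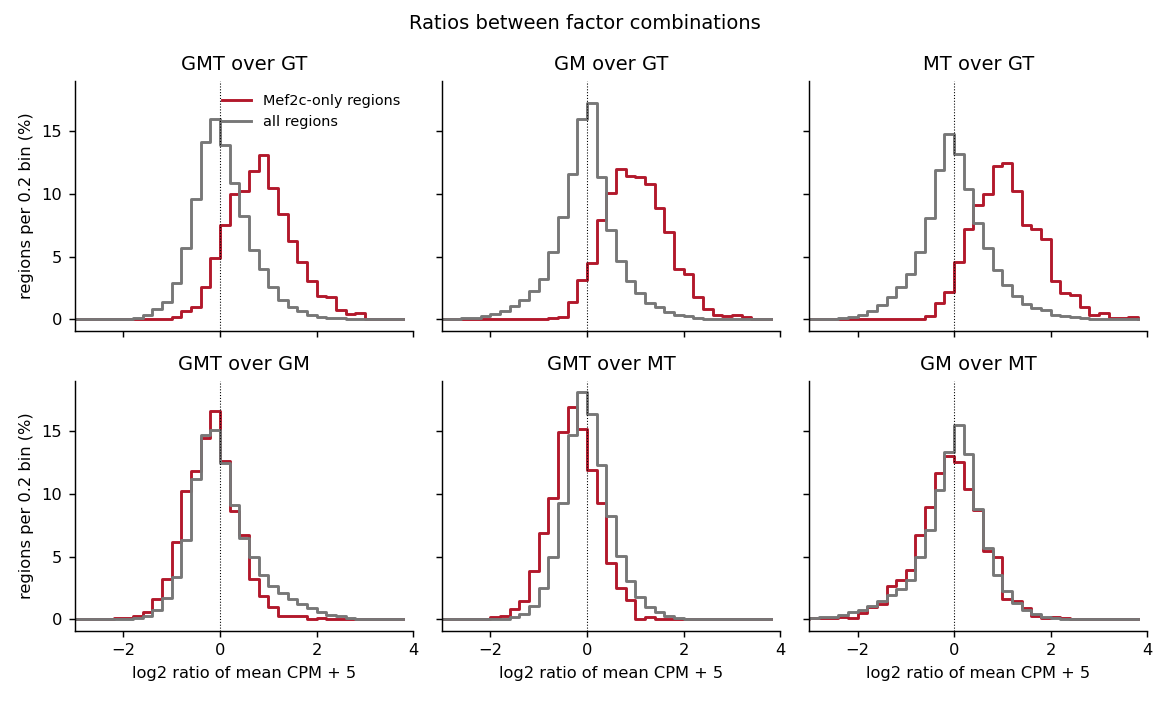
Distribution of log2 ratios of mean CPM + 5 between combinations (x axis) as the percentage of regions per bin of 0.2 (y axis), for the 1172 Mef2c-only regions (red) and all 30815 regions (grey). In the upper panels the members lie to the right, with medians of 0.82 for GMT over GT, 0.99 for GM over GT and 1.06 for MT over GT, and in the lower panels their medians are -0.18, -0.26 and -0.06.

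Calls in GMT against GT were also counted by M level, a value the rule used, and by width. Of the 293 members with the highest M level, 46.9 to 308 CPM, 171 were called higher (58.4%), as were 8.22% of all regions at that level. Of the 293 with the lowest, 7.63 to 22.4 CPM, 31 were (10.6%), as were 3.66% of all regions at that level, and 180 could be tested. The median log2 ratio of GMT over GT (mean CPM plus 5) was 1.27 in the highest of 4 equal groups by M level, 0.88 and 0.74 in the middle groups and 0.51 in the lowest. By width, 175 of 451 members of 300 bp and over were called (38.8%), as were 7.15% of all such regions, and 166 of 721 narrower members (23.0%), as were 2.31% of all such regions. Differences between these classes were not tested.

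Adding Tbx5 to cells with Gata4 and Mef2c gave few calls at the members. In GMT against GM, 15 members (1.28%) were called higher and 18 (1.54%) lower, while 12.1% of all regions tested were called higher and 1.68% lower. Of the members tested, these calls were 1.42% and 1.71%. The rule had left out regions that Tbx5 alone moved beyond its window. The low share of rises beside all regions was therefore partly set by the choice of members. The median log2 ratio of mean CPM plus 5 was -0.18 over the members and -0.05 over all regions. At an unadjusted p below 0.05, edgeR had 49 of the 1053 members tested higher and 94 lower. Of all 20494 regions tested, 3962 were higher and 1620 lower at that threshold. The GMT libraries all lay below those of GM at 191 members (16.3%), as they did at 10.5% of all regions. They all lay above at 48 members (4.10%), as they did at 12.2% of all regions. The first-ranked rise was at chr12:39937703-39937904, with 20.7, 9.79 and 17.9 CPM in GMT and 0.642, 4.91 and 3.09 CPM in GM (log2 fold change 2.79 ± 0.75 SE, edgeR adjusted p = 0.0106). This region also had 15.8, 30.3 and 9.34 CPM in MT. The first-ranked fall was at chr6:101361356-101361851, with 20.7, 2.45 and 5.66 CPM in GMT and 36.6, 63.9 and 63.4 CPM in GM (log2 fold change -2.92 ± 0.65 SE, edgeR adjusted p = 0.00257). GMT replicate 1 was the highest of the GMT libraries there, without overlapping GM.

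The 33 calls in GMT against GM depended on single libraries. There were 18 without GM replicate 1, 12 without GM replicate 3, 8 without GMT replicate 2, 13 without GMT replicate 3 and 50 without the library labelled GT replicate 1. Offsets by a loess curve on abundance turned the split to 8 higher and 47 lower, 55 in all, and a minimum fold of 1.5 left 12. The fit with only the 12 combination libraries called 12 higher and 9 lower, with 10.2% of its regions called higher and 1.14% lower. Without GMT replicate 1 there were 21 higher and 28 lower, and without GM replicate 2 there were 8 higher and 33 lower. The rise at chr12:39937703-39937904 was not called without GM replicate 1 (adjusted p = 0.12) or GMT replicate 3 (adjusted p = 0.0621), both by edgeR.

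Adding Gata4 to cells with Mef2c and Tbx5 gave 5 called members, all lower in GMT against MT (0.427%, or 0.475% of those tested). Of all regions tested, 0.859% were called higher and 0.151% lower. The rule had likewise left out regions that Gata4 alone moved beyond its window. At an unadjusted p below 0.05, edgeR had 19 of the 1053 members tested higher and 137 lower, and DESeq2 called none higher and 7 lower. Of all 20494 regions tested, 1922 were higher and 1086 lower at that unadjusted threshold, and DESeq2 called 266 in either direction. The median log2 ratio of mean CPM plus 5 was -0.26 over the members and -0.01 over all regions. The GMT libraries all lay below those of MT at 195 members (16.6%), as they did at 7.48% of all regions. They all lay above at 33 members (2.82%), as they did at 7.61% of all regions. At chr3:21463315-21463517, one of the 5, GMT had 24.9, 24.5 and 33.0 CPM and MT had 123, 137 and 60.7 CPM (log2 fold change -1.97 ± 0.42 SE, edgeR adjusted p = 0.0182). M had 109, 111 and 116 CPM there, and GM had 21.2, 41.8 and 21.6 CPM. The larger fall, at chr17:87578577-87578777 (log2 fold change -3.54 ± 0.78 SE, edgeR adjusted p = 0.0192), rested on 3 counts in GMT and 44 in MT. No member was called without GMT replicate 2, GMT replicate 3, MT replicate 1 or MT replicate 2, and there were 19 without GMT replicate 1, 17 without the library labelled GT replicate 1 and 9 without MT replicate 3. None was called at a minimum fold of 1.5 and 2 with only the 6 libraries compared. The fit with only the 12 combination libraries called none, where 0.0748% of its regions were called higher and 0.00534% lower. It had 14 higher and 83 lower at an unadjusted p below 0.05, and at chr3:21463315-21463517 its adjusted p was 0.0667.

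The pairs that hold Mef2c differed from each other at 121 members. In GM against MT, 31 members (2.65%) were called higher and 90 (7.68%) lower, while 5.47% of all regions tested were called higher and 12.0% lower. Of the members tested, these calls were 2.94% and 8.55%, below the background in both directions. The rule had left out regions that Gata4 or Tbx5 alone moved beyond its window, which bears on both shares. The median log2 ratio of mean CPM plus 5 was -0.06 over the members and 0.02 over all regions. The number called was 72 without GM replicate 1, 49 without GM replicate 3, 52 without MT replicate 1, 59 without MT replicate 2 and 65 with a minimum fold of 1.5. Without GM replicate 2 there were 44 higher and 67 lower, and with loess offsets 50 higher and 76 lower. The fit with only the 12 combination libraries called 22 higher and 58 lower, with 4.39% of its regions called higher and 10.1% lower.

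**Figure D4:**
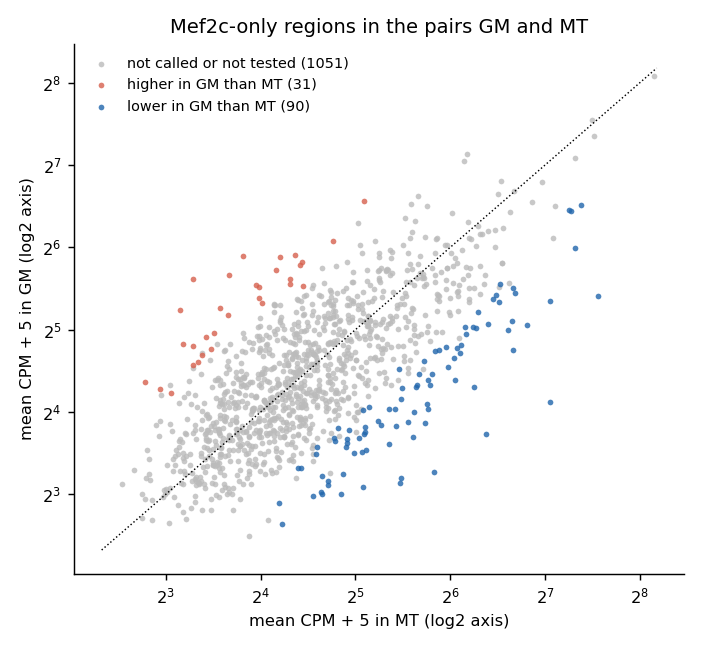
Mean CPM + 5 of each Mef2c-only region in GM (y axis) and MT (x axis), both on log2 axes, with equality as the dotted line. The 31 regions called higher in GM (red) and the 90 called lower in GM (blue) lie on either side of the 1051 that were not called or not tested.

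The first-ranked rise in GM against MT was at chr14:77639805-77640140. GM had 52.0, 41.8 and 38.6 CPM there and MT had 4.69, 9.58 and 0 CPM (log2 fold change 3.04 ± 0.55 SE, edgeR adjusted p = 0.000251). M had 44.8, 25.2 and 24.1 CPM, GMT had 8.29, 15.9 and 14.2 CPM and T had 2.61, 1.48 and 3.62 CPM, against 10.9, 4.99 and 3.32 CPM in the control. MT overlapped the control, and GMT overlapped MT and lay below GM.

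The first-ranked fall was at chr9:16086876-16087151, with 4.49, 4.91 and 4.64 CPM in GM and 51.0, 57.5 and 46.7 CPM in MT (log2 fold change -3.49 ± 0.57 SE, edgeR adjusted p = 8.78e-05). M had 57.6, 37.8 and 41.6 CPM and GMT had 8.29, 11.0 and 25.5 CPM, against 10.9, 4.99 and 4.98 CPM in the control. Here the MT libraries lay at the level of M, and GM lay just under the lowest control library.

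The GMT libraries were on neither side of that comparison, though they entered its filter, scaling and estimate of spread. Their level was set beside the pairs. Among the 31 members higher in GM, the median was 12.8 CPM in GMT, with 36.7 CPM in GM and 7.73 CPM in MT, and GMT was below the geometric midpoint of the pairs at 27. Among the 90 lower in GM, the median was 23.5 CPM in GMT, with 11.5 CPM in GM and 44.5 CPM in MT, and GMT was below the midpoint at 55 and above it at 35. Without GMT replicate 1, GMT was below the midpoint at 21 of the 31 and at 48 of the 90, and without GM replicate 2 at 26 and at 52. The pairs' values chose these members. GMT bore on that choice only through the filter, scaling and estimate of spread, and its level beside the pairs was not tested.

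Single members departed from the common pattern. The region ranked 6 by M over control, chr10:90498772-90499053, had 75.7, 103 and 63.4 CPM in GM and 45.2, 57.5 and 77.1 CPM in MT, with 41.4, 53.8 and 60.4 CPM in GMT. M had 75.2, 68.8 and 87.7 CPM there, against 2.18, 2.50 and 2.49 CPM in the control, so GM and MT overlapped M and GMT lay below it. By contrast the region ranked 2, chr11:32846515-32846968, had 16.6, 23.2 and 22.7 CPM in GMT and 174, 189 and 202 CPM in M. It had 43.0, 22.1 and 44.8 CPM in GM and 72.7, 73.5 and 30.4 CPM in MT, against 8.74, 7.49 and 7.47 CPM in the control.

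The lowest GMT level relative to the control was at chr11:107440015-107440262, with 0, 1.22 and 0.944 CPM in GMT and 2.18, 4.99 and 7.47 CPM in the control. M had 28.8, 24.2 and 63.6 CPM there. The highest was at chr6:59224024-59224564, with 99.4, 125 and 227 CPM in GMT and 10.9, 12.5 and 10.8 CPM in the control. GM had 94.3, 34.4 and 77.3 CPM there, MT had 65.7, 101 and 72.4 CPM and M had 64.0, 36.8 and 52.6 CPM, so GMT overlapped MT and lay above GM and M. GT had 8.64, 10.2 and 58.8 CPM at this region, with 1 library well above the other two.

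The member that passed 2.5 times the control in GT was chr2:69593197-69593772. It had 11.1, 28.0 and 23.5 CPM in GT and 6.55, 1.25 and 7.47 CPM in the control. GMT had 12.4, 79.5 and 79.3 CPM there, with replicate 1 well below the others.

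**Figure D5:**
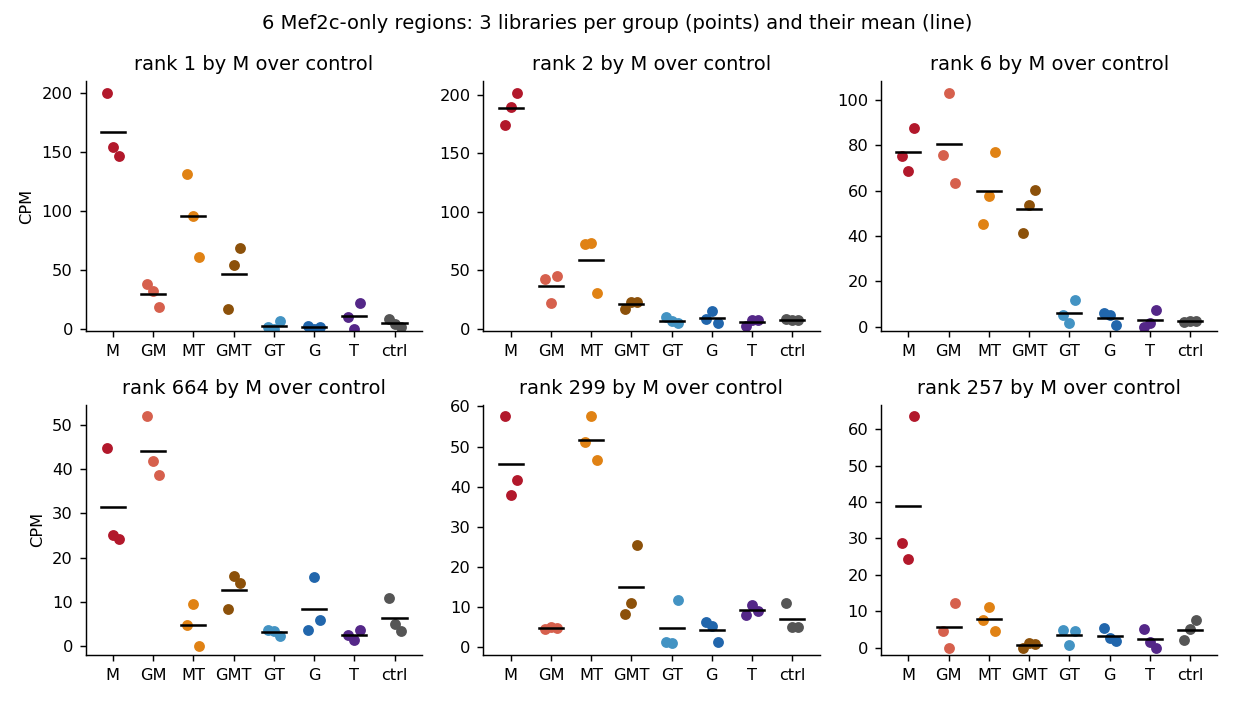
CPM in each of 3 libraries per group (points) and their mean (line) at 6 Mef2c-only regions, titled by rank of M over control: chr15:53151300-53151669 (rank 1), chr11:32846515-32846968 (rank 2), chr10:90498772-90499053 (rank 6), chr14:77639805-77640140 (rank 664), chr9:16086876-16087151 (rank 299) and chr11:107440015-107440262 (rank 257). M is high in every panel, GM is high without MT at rank 664, MT is high without GM at rank 299, and GMT is at 0 to 1.22 CPM at rank 257.

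The rule was then turned to the other factors for comparison, giving 936 Gata4-only and 1605 Tbx5-only regions. Each list was followed on adding its own factor to the other pair. On adding Mef2c to GT, the median log2 ratio of mean CPM plus 5 was 0.82 at the Mef2c-only regions. On adding Gata4 to MT it was 0.51 at the Gata4-only regions, and on adding Tbx5 to GM it was 1.38 at the Tbx5-only regions. Over all regions these medians were -0.01, -0.01 and -0.05. The 3 comparisons rest on different libraries, and the differences between the lists were not tested.

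Width and position were not used by the rule. The median width was 263 bp for Mef2c-only regions, 259 bp for Gata4-only regions, 303 bp for Tbx5-only regions and 234 bp over all regions. The 451 members of 300 bp and over had medians of 38.2 CPM in M and 18.3 CPM in GMT, with 22.1 CPM in MT and 21.9 CPM in GM. The 721 narrower members had medians of 28.4 CPM in M and 10.7 CPM in GMT, with 14.5 CPM in MT and 13.2 CPM in GM. Wider regions collect more counts at equal density, and their part in this was not tested.

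Members lay on all chromosomes of the table except Y, which has 5 regions. Chromosome 18 held 71 members, 6.36% of its 1116 regions, and chromosome 7 held 39, 2.80% of its 1391, against 3.80% over all regions. The nearest other region was within 2000 bases at 202 members (17.2%), and at 20.1% of all regions. In 19 cases 2 members lay within 2000 bases of each other.

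The closest such pair, chr3:132536198-132536400 and chr3:132536403-132536742, had a gap of 2 bases. Its parts had 41.6, 33.0 and 19.7 CPM and 64.0, 42.6 and 70.1 CPM in M, and both were called higher in GMT against GT (log2 fold changes 1.91 ± 0.58 SE and 3.80 ± 0.84 SE, edgeR adjusted p = 0.0393 and 0.00459). In the next pair, chr3:80090418-80090618 and chr3:80090630-80090832, neither part was called in that comparison (adjusted p = 0.575 and 0.471). Their levels in GMT were 4.14, 1.22 and 4.72 CPM and 4.14, 3.67 and 2.83 CPM, against 2.47, 0.848 and 2.35 CPM and 1.23, 0 and 4.71 CPM in GT.

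Regions that were not members but lay within 2000 bases of one numbered 176. They had a median ratio of M to control of 1.37, and 114 of them could be tested. Of the 176, 17 (9.66%) were called higher in GMT against GT and none lower, which is 14.9% of those tested, against 5.66% of all regions tested. Their median log2 ratio of GMT over GT (mean CPM plus 5) was 0.34, against 0.82 at the members and -0.01 over all regions.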

How the data were processed

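The authors deposited raw counts per region and library, counted with featureCounts per the submitters' processing notes, which also name Bowtie2, Picard and build mm9. Region coordinates and widths (201 to 1484 bases) are other columns of the deposited table. How regions were defined, reads filtered and reads or fragments counted is not given in the sources used here. Aliquots of 50000 cells, 12 PCR cycles and reads of 100 bases were used, per the labels.

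Members came from CPM by column sums. Fits used R 4.3.3, edgeR 4.0.16, limma 3.58.1 and DESeq2 1.42.0: filterByExpr (minimum count 10, minimum total 15), TMM scaling and 8 groups fitted together, with adjustment within each of 6 comparisons. A fit with only the 12 libraries of GM, MT, GMT and GT, in which no library of the rule enters, was added after the data were seen. SE is the log2 fold change divided by the root of F. The test was tried on simulated data. Members and lists were chosen with earlier results of these data known. Named regions rank highest or lowest by M over control, GMT or GT over control, or by log2 fold change among called members whose groups do not overlap, or lie at the threshold or in the closest pairs. Alternatives were other scalings, filters, tests, rule settings, the replicate block and left-out libraries. Counts without molecular identifiers are not independent molecules, and floors cover counting error only.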

Additional observations from a re-analysis of the deposited data

Results flagged for a closer look

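For the regions below, the response against the shared control differed between GM and MT by the direct edgeR test of GM against MT (adjusted p below 0.05 over all regions tested). The log2 fold change was 3.04 at chr14:77639805-77640140, 2.76 at chr4:55374373-55374652 and 2.56 at chr9:99113116-99113497. It was -3.49 at chr9:16086876-16087151, -3.37 at chr7:96879045-96879276 and -3.35 at chr14:121564858-121565060. At chr7:96879045-96879276 the call rested on 3 counts in GM and 35 in MT, and it was lost without GM replicate 1 (adjusted p = 0.061). In a fit with only the 12 libraries of GM, MT, GMT and GT, the regions chr4:55374373-55374652 and chr7:96879045-96879276 did not pass the filter, and the other 4 were called.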

How the results depend on the processing

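No member was called lower than GT in GMT, GM or MT under any of the alternatives run. The low counts in GT left little room for such a call under any of them. Leaving out 1 library gave 155 to 340 members called in GMT against GT, 153 to 513 in GM against GT, 370 to 622 in MT against GT, 8 to 50 in GMT against GM, 0 to 19 in GMT against MT and 49 to 144 in GM against MT. Over all regions the same fits called 489 to 1807, 412 to 3958, 1924 to 4459, 1255 to 3481, 0 to 621 and 1899 to 4224, in that order. A minimum fold of 1.5 gave 196 members in GMT against GT, 12 in GMT against GM, 0 in GMT against MT and 65 in GM against MT. Only the 6 compared libraries gave 62 in GMT against GT, 248 in GM against GT, 347 in MT against GT and 2 in GMT against MT. Loess offsets gave 55 in GMT against GM. Only the 12 combination libraries, added once the data had been seen, gave 21 in GMT against GM, 0 in GMT against MT and 80 in GM against MT, with 5 of the 24 named calls not tested there. The cause of these shifts was not tested. With the replicate block the counts were 347, 483, 598, 34, 4 and 120 in that order of comparisons. Whether same-numbered libraries share a batch is not stated. Correlations of their deviations ran from -0.437 to 0.482, and no comparison had all pairs above 0.1. These cannot settle it, since they rest on deviations from means of 3 libraries. The median log2 fold change of the members in GM against MT was -0.17, and ran from -0.27 to 0.024 with 1 library left out, turning to 0.017 without GM replicate 3 and to 0.024 without MT replicate 1.

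The rule gave 778 regions with 10 CPM added in place of 5, 1857 at a fold of at least 2 and 779 at a fold of at least 3, and 940 to 1425 without 1 library. The median log2 ratio of GMT over GT stayed positive in each of these lists, at 0.65 to 0.95. Leaving out 1 library, which was added once the data had been seen, gave 323 to 460 members at 2.5 times the control in GM, 337 to 474 in MT, 212 to 331 in GMT and 1 to 5 in GT. Of 380 refits of the named calls, 30 lost the call and none turned. At the depth of GMT replicate 1, the median member had 3 counts and 146 members had 0.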
